A study of Mus musculus with 4 samples.

Results

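The cell cycle genes described here are a list of 36 genes chosen by symbol, of which 32 were among the 19465 genes of the count matrices. They comprise 11 S-phase genes, 20 mitotic genes and the G1 cyclin gene Ccnd1, and Rrm2, Ccnb1, Cdc20 and Kif2c of the list were not analysed here. Transcripts were captured on arrays of barcoded spots (Visium) from 4 formalin-fixed, paraffin-embedded mouse liver sections, each from a separate mouse. All mice carried Hk2 alleles flanked by loxP sites (HK2fl/fl), received tamoxifen at 75 mg/kg for 5 days, waited 2 weeks and were labelled male and 5 months old. The Hk2-deleted section (n = 1, PDGFRBcreERT2/Hk2fl/fl) came from a mouse given carbon tetrachloride (CCl4), with a tamoxifen-inducible Cre driven by the Pdgfrb promoter. That promoter is active in hepatic stellate cells and also in other mural and mesenchymal cells, so Hk2 (hexokinase 2, the first enzyme of glycolysis) was left intact in hepatocytes. CCl4 sections 1 and 2 (n = 2) came from CCl4-treated mice without Cre, and the healthy section (n = 1) from a mouse without Cre given olive oil. CCl4 was injected at 1 µL/g of body weight 2 times a week, for 6 weeks by the design text, while the sample protocol gives 4 or 6 weeks.

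Cells that leave quiescence first induce cyclin D1, which with its kinase partners releases E2F transcription factors from the retinoblastoma protein. E2F then drives the genes of DNA replication: the MCM helicase subunits, the nucleotide synthesis enzymes and cyclin E. Mitotic genes are kept silent by the DREAM complex in resting cells and are switched on later by B-Myb, MuvB and FoxM1, through the cell cycle genes homology region (CHR) and nearby CCAAT boxes that bind NF-Y. Hepatocytes rarely divide in the adult liver, and CCl4, a toxin activated by the cytochromes of pericentral hepatocytes, is a classical trigger of their division and of stellate cell and leukocyte growth. Hepatocytes can also copy their DNA without dividing, which makes the polyploid cells typical of the liver.

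The promoters of both classes are shown because the classes differed in their letters as well as in their levels. Promoter sequences are from RefSeq (GRCm38.p6), are given 5′ to 3′ on the strand of the gene, and end at or close to its annotated start. Capitals mark CHR motifs (TTTGAA or TTCGAA), E2F motifs (TTTGGCGC or TTTCGCGC) and CCAAT boxes (CCAAT), each searched on both strands, and overlapping E2F matches run together. Cdk1 (chr10:69352913-69353052, minus strand) encodes the kinase that starts mitosis, Kif11 (chr19:37376322-37376381, plus strand) the motor that separates the spindle poles, and Top2a (chr11:99024190-99024289, minus strand) the topoisomerase that untangles chromosomes. Ccnb2 (chr9:70421555-70421644, minus strand) encodes cyclin B2 and is shown for its run of CCAAT boxes. Mcm5 (chr8:75109349-75109508, plus strand) and Mcm6 (chr1:128359706-128359825, minus strand) encode subunits of the replicative helicase.
Cdk1: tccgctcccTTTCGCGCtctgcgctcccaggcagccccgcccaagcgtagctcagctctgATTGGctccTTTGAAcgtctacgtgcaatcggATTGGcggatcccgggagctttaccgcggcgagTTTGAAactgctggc
Kif11: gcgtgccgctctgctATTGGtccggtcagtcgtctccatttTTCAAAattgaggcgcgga
Top2a: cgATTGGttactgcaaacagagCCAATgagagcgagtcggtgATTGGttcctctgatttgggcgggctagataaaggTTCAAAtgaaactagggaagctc
Ccnb2: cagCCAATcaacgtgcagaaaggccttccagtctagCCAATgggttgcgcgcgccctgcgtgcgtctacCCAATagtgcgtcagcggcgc
Mcm5: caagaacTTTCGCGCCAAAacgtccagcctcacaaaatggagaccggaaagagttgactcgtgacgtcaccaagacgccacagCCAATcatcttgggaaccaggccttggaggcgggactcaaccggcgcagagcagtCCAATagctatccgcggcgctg
Mcm6: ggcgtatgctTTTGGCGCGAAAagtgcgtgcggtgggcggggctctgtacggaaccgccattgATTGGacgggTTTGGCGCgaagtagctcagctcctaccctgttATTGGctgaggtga
A window of 250 bases before to 50 after the start was available for 18 of 23 listed mitotic genes and for 10 of 12 listed S-phase genes, counted whether or not they were in the matrices. A gene was counted for a motif if any of its windows held it. A CHR motif was present for 14 of the 18 mitotic genes (77.8%) and for 2 of the 10 S-phase genes, against 21.7% of all 27025 genes with a window. An E2F motif was present for 1 of the 18 mitotic genes, Cdk1, and for 4 of the 10 S-phase genes (40.0%), against 0.929% of all genes. CCAAT boxes were present for 15 mitotic and 8 S-phase genes, against 41.1% of all genes. Both CHR and CCAAT were found for 13 mitotic genes, 2 S-phase genes and 9.65% of all genes, not necessarily in the same window. These matches are a description of the letters and do not show binding.

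The sections held 3865 spots (Hk2-deleted), 4134 and 2577 spots (CCl4 1 and 2) and 3064 spots (healthy), with 40585039 to 67479047 UMIs (unique molecules counted) a section and medians of 13665 to 15588 UMIs a spot. CCl4 section 1 stood apart: although labelled male, it had 0.415 CPM (counts scaled to a common library total) of the Y-linked gene Ddx3y, against 47.0 CPM in the Hk2-deleted, 50.3 in CCl4 section 2 and 52.4 in the healthy section. Some of the results that rest on CCl4 section 1, but not all, are also given without it. Hk2, the targeted gene, was at 3.21 normalised CPM in the Hk2-deleted section, 4.34 and 4.02 in CCl4 sections 1 and 2, and 2.22 in the healthy section. Its log2 fold change was -0.38 ± 0.33 (SE, adjusted p = 1.00) for the Hk2-deleted over the CCl4 sections; the exon read by its probe is not given in the sources used here, so this does not check the deletion. The hepatocyte markers Alb, Apoa1, Apob, Ttr, Serpina1c, Fgb, Tat and Hpx together made up 112894, 149293, 156654 and 240696 normalised CPM in the Hk2-deleted, CCl4 1, CCl4 2 and healthy sections, as labelled for liver. A spot covers several cells, and in these sums a larger number of dividing cells and more RNA per dividing cell cannot be told apart.

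CCl4 livers had more mitotic transcripts than the healthy liver, while most replication transcripts lay close to it. Levels below are CPM, normalised by the trimmed mean of M values (TMM), and each fold change is on the log2 scale for the 2 CCl4 sections over the healthy section. Of the 20 mitotic genes 16 rose at an adjusted p under 0.05 and none fell. Of the 11 S-phase genes 2 rose and none fell, and Ccnd1 did not pass. Among all 14125 genes tested, 9.64% were called higher and 4.01% lower. The median log2 fold change was 2.19 over the 20 mitotic genes and 0.44 over the 10 S-phase genes other than Pcna, beside 0.00 over all genes. The test has 1 residual degree of freedom, from the pair of CCl4 sections, and takes the spread of the lone sections to be the same. It also moderates the spread of each gene toward that of all genes, so its p-values rest in part on other genes.

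**Figure D1:**
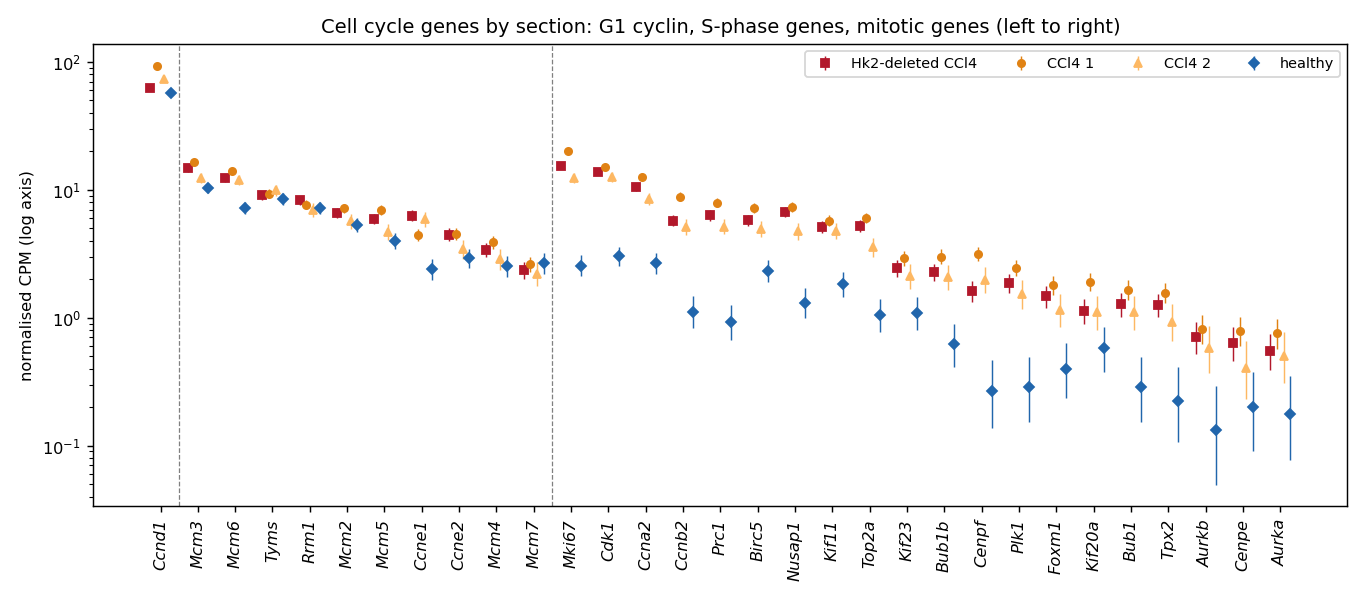
Normalised CPM (log axis) of each cell cycle gene in the Hk2-deleted CCl4, CCl4 1, CCl4 2 and healthy sections, with Ccnd1 at the left, then S-phase and mitotic genes by mean level; bars are exact Poisson 95% intervals of 1 section and cover counting error only, and Pcna is left out. All 3 CCl4-treated sections lay above the healthy section in every mitotic gene, whereas in Rrm1, Tyms, Mcm2 and Mcm7 the sections lay close together.

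Mki67, whose product Ki-67 coats mitotic chromosomes, is the usual marker of cycling cells (ENSMUSG00000031004, chromosome 7, 135689784 to 135716450). It was at 15.3 normalised CPM in the Hk2-deleted section, 19.9 in CCl4 section 1 and 12.3 in CCl4 section 2, against 2.56 in the healthy section. It rose by 2.66 ± 0.29 (SE, adjusted p = 3.3e-06). Every treated section exceeded the healthy one, and CCl4 section 1 was the highest. Cdk1 was at 13.8, 15.0 and 12.5 normalised CPM in the Hk2-deleted, CCl4 1 and CCl4 2 sections, against 3.04 in the healthy section. Its rise was 2.18 ± 0.25 (adjusted p = 4.8e-06), and the treated sections differed little among themselves.

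The 3 mitotic genes with the largest log2 fold changes among those called were Cenpf, Prc1 and Plk1. Cenpf, a kinetochore protein that accumulates in G2, had 1.61 normalised CPM in the Hk2-deleted section, 3.14 and 1.98 in CCl4 sections 1 and 2, and 0.267 in the healthy section, where it rested on 12 UMIs. It rose by 3.26 ± 0.56 (adjusted p = 0.00053). Prc1, which bundles the microtubules of the central spindle before cytokinesis, had 6.29 normalised CPM in the Hk2-deleted section, 7.93 and 5.15 in CCl4 sections 1 and 2, and 0.933 in the healthy section. The treated sections of both genes lay apart from the healthy one. Prc1 rose by 2.81 ± 0.36 (adjusted p = 2.5e-05). Plk1, a kinase needed for mitotic entry and spindle assembly, had 1.86, 2.44 and 1.53 normalised CPM in the Hk2-deleted, CCl4 1 and CCl4 2 sections against 0.289 (13 UMIs) in the healthy section, and rose by 2.78 ± 0.57 (adjusted p = 0.0025).

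The other mitotic genes that rose did so by 1.39 to 2.66. They were the cyclin genes Ccnb2 (2.66) and Ccna2 (1.99), the spindle genes Tpx2 (2.50), Nusap1 (2.21) and Kif11 (1.53), the checkpoint kinase genes Bub1 (2.26) and Bub1b (2.03), the chromosomal passenger genes Aurkb (2.39) and Birc5 (1.39), Top2a (2.20) and Foxm1 (1.89), whose product is a transcription factor of mitotic genes. Aurkb rested on 6 UMIs in the healthy section. Aurka (1.83 ± 0.76), Cenpe (1.60 ± 0.76), Kif20a (1.40 ± 0.56) and Kif23 (1.21 ± 0.43) did not pass the test. Their counts in the healthy section were 8, 9, 26 and 49 UMIs.

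Among S-phase genes, Mcm6 and the cyclin E1 gene Ccne1 rose. Mcm6 was at 12.3 normalised CPM in the Hk2-deleted section, 14.0 and 11.98 in CCl4 sections 1 and 2, and 7.24 in the healthy section, a rise of 0.85 ± 0.22 (adjusted p = 0.014). Ccne1, which partners Cdk2 at the start of replication, was at 6.28, 4.41 and 5.85 normalised CPM in the Hk2-deleted, CCl4 1 and CCl4 2 sections against 2.40 in the healthy section, a rise of 1.09 ± 0.31 (adjusted p = 0.024). The sections did not overlap in either gene, but CCl4 section 1, the highest for Mki67, was the lowest treated section for Ccne1. Mcm3, another helicase subunit, was at 14.7, 16.3 and 12.3 normalised CPM in the treated sections in the same order and 10.4 in the healthy section (0.47 ± 0.22, adjusted p = 0.17).

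The remaining helicase genes Mcm2, Mcm4 and Mcm5 had log2 fold changes of 0.28, 0.42 and 0.56, Mcm7 had -0.14 and Ccne2 0.46, and none passed. Among the nucleotide synthesis genes, Rrm1, the large subunit of ribonucleotide reductase, was at 8.31, 7.64 and 6.96 normalised CPM in the Hk2-deleted, CCl4 1 and CCl4 2 sections and 7.20 in the healthy section, a log2 fold change of 0.02 ± 0.23. Tyms, thymidylate synthase, was at 9.01, 9.33, 9.92 and 8.49 in the same order (0.18 ± 0.22). Pcna, the sliding clamp of DNA polymerase, had only 8, 3, 9 and 0 UMIs in the same order, so no fold is given. Ccnd1 was at 62.1, 92.1 and 72.9 normalised CPM in the treated sections in the same order and 57.5 in the healthy section (0.52 ± 0.23, adjusted p = 0.14).

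**Figure D2:**
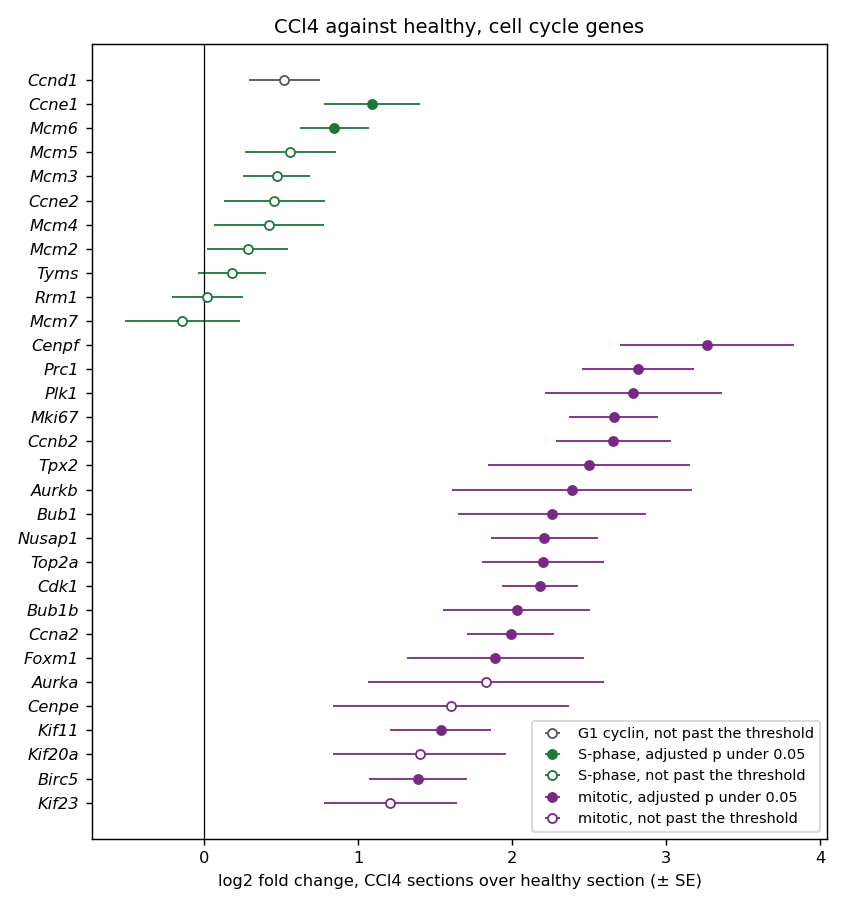
Log2 fold changes (± SE) of the 2 CCl4 sections over the healthy section for Ccnd1 (grey), S-phase genes (green) and mitotic genes (purple), without Pcna; filled points passed an adjusted p of 0.05. The point estimates lie between 1.21 and 3.26 for mitotic genes and between -0.14 and 1.09 for S-phase genes.

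Without CCl4 section 1 the medians were 1.80 for mitotic and 0.23 for S-phase genes, and with CCl4 section 2 and the Hk2-deleted section against the healthy one 14 mitotic and 2 S-phase genes were called. DESeq2 called 12 mitotic genes and no S-phase gene. Scaling to section totals in place of TMM moved the median of all genes to 0.34, with 1877 genes higher and 206 lower in place of 1362 and 567. Folds here are relative to the TMM scale. Neutrophil markers together were at 499, 564 and 1237 normalised CPM in the Hk2-deleted, CCl4 1 and CCl4 2 sections and 28.2 in the healthy section, and lymphocyte markers at 320, 354, 201 and 142 in the same order. The part of immune cells in the rise of mitotic genes was not tested.

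Summed over each class, mitotic genes were at 89.6, 111 and 75.0 normalised CPM in the Hk2-deleted, CCl4 1 and CCl4 2 sections against 21.1 in the healthy section. S-phase genes were at 73.4, 76.9 and 66.1 in the treated sections against 53.1 in the healthy section. Of the UMIs of both classes, mitotic genes took 55.0%, 59.1% and 53.2% in the treated sections in the same order and 28.4% in the healthy section (exact binomial 95% interval 26.9 to 30.0%). Probes of different genes need not capture alike, so these shares are compared only between sections. The log2 ratio of mitotic to S-phase UMIs in CCl4 sections 1 and 2 exceeded that of the healthy section by 1.86 and 1.51 (mean 1.69 ± 0.25, SD, n = 2). It exceeded it by 1.66 without Pcna, Ccne1, Ccne2, Mki67, Top2a, Ccna2 and Foxm1. Those genes are not specific to 1 phase or are expressed across phases. With each gene at the same weight, the mean of log2(CPM + 1) over mitotic genes minus that over S-phase genes exceeded the healthy value by 0.87. That value is not a ratio of UMIs. The added 1 CPM shrinks changes of genes below 1 CPM in the healthy section, such as Plk1 at 0.289.

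Spots with several mitotic genes were more frequent in the treated sections than in the healthy section. To set sections of different depth side by side, each spot was thinned to 8000 UMIs, which left 3727 spots of the Hk2-deleted section, 3905 and 2456 of CCl4 sections 1 and 2 and 2926 of the healthy section, and left out 138, 229, 121 and 138 spots. At this depth 48.8%, 55.7% and 38.9% of spots of the treated sections held a mitotic UMI, against 13.0% of healthy spots. An S-phase UMI was found in 45.9%, 48.8% and 39.5% of treated spots against 30.6% of healthy spots. Spots with at least 3 different mitotic genes made up 4.56%, 7.96% and 3.99% in the treated sections (170, 311 and 98 spots) and 0.205% in the healthy section (6 spots). Without thinning, spots with at least 5 mitotic genes numbered 139, 292 and 63 in the treated sections and 3 in the healthy section, and held 19.9%, 25.2%, 16.9% and 1.69% of all mitotic UMIs. The richest spot of the Hk2-deleted section held 93 mitotic UMIs, those of CCl4 sections 1 and 2 held 36 and 21, and the richest healthy spot held 6. A higher level alone raises such counts. No count expected from independent scatter was computed, so they do not show that mitotic transcripts lie together.

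Spots that held a Mki67 UMI were richer in the other mitotic genes. In raw CPM, these genes together were at 113, 127 and 105 in Mki67-positive spots of the Hk2-deleted, CCl4 1 and CCl4 2 sections, against 70.8, 91.6 and 51.9 in spots without Mki67. In the healthy section they were at 33.6 in the 107 spots with Mki67 and 14.6 elsewhere. The ratio was thus 1.59, 1.38, 2.02 and 2.30 in the 4 sections in this order. S-phase genes differed less between the same spots, with ratios of 1.19, 1.16, 1.31 and 1.13. Spots that adjoin a Mki67-positive spot but lack it had 70.1, 93.7 and 54.6 CPM of the other mitotic genes in the treated sections, close to all spots without Mki67. Positive spots were deeper, with a median of 15075 to 19196 UMIs against 13362 to 15482, a difference that CPM removes only in part.

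The Hk2-deleted section addresses whether Hk2 in Pdgfrb-expressing cells bears on the response to CCl4. None of the 32 genes was called between the Hk2-deleted section and the 2 CCl4 sections by edgeR, none had an unadjusted p under 0.05, and DESeq2 called none. Over all genes 0.142% were called higher and 0.085% lower. The medians were -0.06 for mitotic genes and 0.01 for S-phase genes. The range was wider than these medians, from -0.68 ± 0.44 for Cenpf to 0.30 ± 0.28 for Ccne1. With 1 deleted section, differences of the size of these standard errors were not detectable. Ccnd1 had -0.41 ± 0.23, the lowest unadjusted p of the list (0.087), and Mki67 -0.08 ± 0.24. The 2 CCl4 sections differed from each other by as much: against CCl4 section 2 alone the mitotic median was 0.25, and against CCl4 section 1 alone it was -0.32. This comparison shares the CCl4 sections with that against the healthy section.

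Liver lobules are organised between the central vein and the portal tract, and spots were split within each section into 3 zones of equal size by a score of pericentral and periportal hepatocyte genes, which holds no cell cycle gene. Of 31 genes tested over all 4 sections, Ccnb2 was called higher in the pericentral than in the periportal zone and none lower. Among all 13164 genes tested, 15.1% were called higher and 13.4% lower pericentrally, and the share of members called was below both. Ccnb2 was at 7.09, 8.88 and 6.33 normalised CPM in the pericentral zone of the Hk2-deleted, CCl4 1 and CCl4 2 sections against 4.56, 8.72 and 3.40 in their periportal zone, and at 1.43 against 0.974 in the healthy section. The values of CCl4 section 1 nearly coincided. The log2 fold change was 0.43 ± 0.14 (adjusted p = 0.037), but the adjusted p was 0.26 without the Hk2-deleted section and 0.19 without CCl4 section 2. The median log2 difference was 0.26 for the 20 mitotic and 0.07 for the 10 S-phase genes tested.

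**Figure D3:**
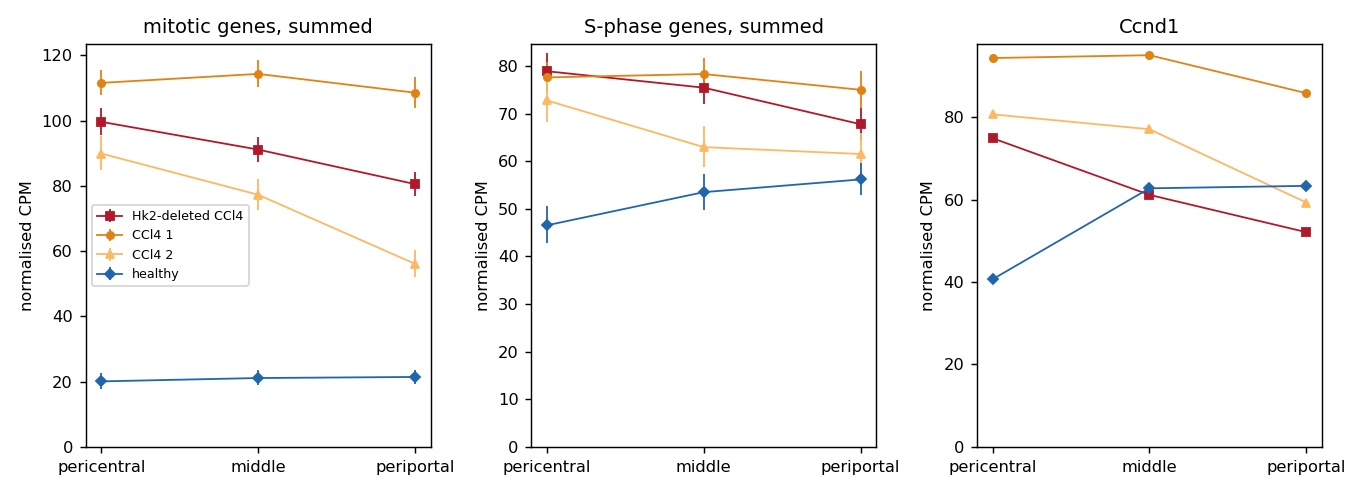
Normalised CPM in the pericentral, middle and periportal zone of each section for the summed mitotic genes, the summed S-phase genes and Ccnd1; bars in the first 2 panels are exact Poisson 95% intervals (counting error only). Mitotic genes were at 89.9 pericentrally and 56.1 periportally in CCl4 section 2 but at 112 and 109 in CCl4 section 1, and Ccnd1 ran the opposite way in the healthy section.

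Summed mitotic genes were at 99.6 and 80.5 normalised CPM in the pericentral and periportal zones of the Hk2-deleted section, 112 and 109 in CCl4 section 1, 89.9 and 56.1 in CCl4 section 2, and 20.1 and 21.4 in the healthy section. A slope was thus seen in 2 of the 3 treated sections. Without the healthy section 9 genes were called higher pericentrally, which were Mcm2, Mcm3, Mcm5, Cdk1, Ccnb2, Mki67, Plk1, Bub1b and Ccnd1. In that fit 22.7% of all 13159 genes were called higher and 24.3% lower. Mki67 was at 16.4, 20.9 and 16.2 normalised CPM in the pericentral zone of the treated sections, against 13.1, 17.9 and 8.11 periportally, while in the healthy section it was at 1.85 and 3.09. Over all 4 sections its log2 difference was 0.36 ± 0.14 (adjusted p = 0.074). Cdk1 (0.21 ± 0.08, adjusted p = 0.054), Mcm3 (0.24 ± 0.10, adjusted p = 0.093), Mcm6 (0.09 ± 0.07) and Ccnd1 (0.15 ± 0.14) did not pass either. Scaling to totals in place of TMM put the median of all genes at 0.21 here, with 6722 genes higher and 609 lower in place of 1984 and 1758, and called 15 members.

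The middle zone, where hepatocyte renewal has been placed by lineage tracing in mice, did not stand out. Against the mean of both outer zones none of 31 genes was called by edgeR or DESeq2, none had an unadjusted p under 0.05, and the medians were 0.02 for mitotic and 0.04 for S-phase genes. The comparison called 0.0% of the 13164 genes in either direction, with 414 at an unadjusted p under 0.05 and 1 called by DESeq2.

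The difference between zones was not the same in treated and healthy sections for Ccnd1 and Mcm2. It was tested as the zone difference of the 3 treated sections minus that of the healthy section. Landmarks of the zone score themselves changed with CCl4. Pericentral Oat was at 117, 146 and 169 normalised CPM in the Hk2-deleted, CCl4 1 and CCl4 2 sections against 1115 in the healthy section. Of 11 pericentral landmarks, 2 were called higher and 2 lower with CCl4, beside 9.64% and 4.01% of all genes. A zone may therefore not hold the same tissue in treated and healthy sections, which was not tested. Ccnd1, a Wnt target in pericentral hepatocytes of the mouse, was at 74.9, 94.3 and 80.7 normalised CPM in the pericentral zone of the Hk2-deleted, CCl4 1 and CCl4 2 sections, against 52.1, 85.8 and 59.3 periportally. In the healthy section it was at 40.7 pericentrally and 63.3 periportally. The zones were ordered one way in every treated section and the other way in the healthy one, and the interaction was 0.99 ± 0.13 (adjusted p = 3.1e-05). Mcm2 was at 8.54, 7.51 and 6.70 pericentrally and 5.06, 6.63 and 4.63 periportally in the treated sections, and at 4.37 and 6.01 in the healthy section. Its interaction was 0.93 ± 0.28 (adjusted p = 0.018), and the adjusted p was 0.12 without collagen-rich spots (0.65) and 0.074 without the Hk2-deleted section (0.75). These were 2 of 31 genes tested, beside 10.2% of all 13388 genes called higher and 13.4% lower.

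Both classes had positive interactions more often than not, 9 of 10 S-phase genes (Mcm2 among them) and 13 of 20 mitotic genes. The medians were 0.39 and 0.29, beside 0.02 over all genes. Mki67 had 1.15 ± 0.44 (adjusted p = 0.064), Cdk1 0.24 ± 0.30, Mcm3 0.52 ± 0.21 (adjusted p = 0.079) and Mcm6 0.24 ± 0.20. Only 22 Mki67 UMIs were counted in the pericentral zone of the healthy section. Scaling to totals gave 2150 genes higher and 900 lower in place of 1363 and 1788. Pericentral spots of treated livers were also those with collagen: 21.3%, 22.1% and 24.7% of them were collagen-rich in the Hk2-deleted, CCl4 1 and CCl4 2 sections, against 2.25%, 1.16% and 1.05% of periportal spots. Neutrophil markers were at 598, 653 and 1568 normalised CPM pericentrally and 365, 387 and 803 periportally in these sections, and the part of these cells in the zone differences was not tested.

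Collagen-rich spots are the 10% of a section's spots ranking highest for the fraction of UMIs from 3 fibrillar collagen genes (Col1a1, Col1a2, Col3a1). They need not be scar alone. Of 5 mesothelial (liver surface) markers, 4 were called higher and 1 lower in them. The mesothelial median was 2.57, beside 1.21 for stellate or myofibroblast markers. The fixed 10% does not follow the amount of collagen: Col1a1 was at 234, 351 and 168 normalised CPM in the Hk2-deleted, CCl4 1 and CCl4 2 sections. The ratio of summed mitotic genes in collagen-rich over other spots was 1.46 (95% interval 1.36 to 1.56) in the Hk2-deleted section, 1.05 (0.991 to 1.12) in CCl4 section 1 and 1.51 (1.37 to 1.67) in CCl4 section 2. For S-phase genes it was 1.34 (1.25 to 1.45), 1.06 (0.979 to 1.14) and 1.28 (1.14 to 1.43), so that the intervals of CCl4 section 1 held 1 for both classes. Of 10 S-phase genes tested 5 were called higher and 1 lower, of 20 mitotic genes 6 were called higher and none lower, and Ccnd1 was called higher. Of all 13493 genes, 21.7% were called higher and 21.9% lower. The mitotic share of calls, 6 of 20, was therefore near that of all genes. The medians were 0.40 for mitotic and 0.36 for S-phase genes, beside 0.01 for all genes.

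Mcm2 was at 12.4, 9.97 and 9.52 normalised CPM in collagen-rich spots of the Hk2-deleted, CCl4 1 and CCl4 2 sections, against 6.55, 7.48 and 5.77 in their other spots. It was higher in every section, by 0.70 ± 0.14 (adjusted p = 0.0013). Rrm1 was at 15.7, 7.83 and 11.0 in collagen-rich spots against 8.23, 8.43 and 7.15 in other spots, so it was higher in all but CCl4 section 1 (0.52 ± 0.18, adjusted p = 0.029, and 0.18 with adjusted p = 0.47 without the Hk2-deleted section). Mcm5 was at 9.30, 8.58 and 7.26 against 6.09, 7.46 and 4.85 (0.46 ± 0.15, adjusted p = 0.024). Mcm6 (0.40 ± 0.10, adjusted p = 0.0070) and Mcm3 (0.33 ± 0.11, adjusted p = 0.032) were higher as well. Ccne2, the second cyclin E gene, ran the other way, at 3.19, 3.11 and 3.51 in collagen-rich spots against 5.14, 5.25 and 3.75 in other spots (-0.56 ± 0.20, adjusted p = 0.038). The call of Ccne2 was lost in 7 of the 10 alternatives run.

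Among mitotic genes, Mki67 was at 22.8, 22.6 and 24.8 normalised CPM in collagen-rich spots of the Hk2-deleted, CCl4 1 and CCl4 2 sections, against 16.0, 21.6 and 11.97 in other spots. The collagen-rich spots were alike in all 3 sections, and the sections differed in the spots outside. The log2 fold change was 0.48 ± 0.14 (adjusted p = 0.012). Cdk1 was at 19.0, 18.2 and 18.8 against 14.6, 16.1 and 13.0 (0.36 ± 0.10, adjusted p = 0.0093), with the same pattern. Ccnb2 was at 9.18, 10.4 and 9.26 against 5.88, 9.53 and 5.13 (0.49 ± 0.16, adjusted p = 0.022). Prc1 was at 9.81, 8.69 and 9.26 against 6.52, 8.66 and 5.16 (0.44 ± 0.17, adjusted p = 0.048), so it differed in 2 of 3 sections. Aurkb, the kinase of the chromosomal passenger complex, was at 2.04, 1.07 and 1.00 against 0.599, 0.866 and 0.583 (1.02 ± 0.39, adjusted p = 0.046), on 16, 10 and 4 UMIs in collagen-rich spots. Ccna2 also passed (0.39 ± 0.13, adjusted p = 0.030).

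Ccnd1 was at 82.97, 102 and 90.4 normalised CPM in collagen-rich spots against 66.2, 100.4 and 78.0 in other spots (0.21 ± 0.07, adjusted p = 0.027). In the healthy section collagen-rich spots were at 28.2 for the summed mitotic genes against 21.9 elsewhere, and at 54.9 for S-phase genes against 56.8. Without CCl4 section 1, 16 members were called (5 S-phase, 10 mitotic and Ccnd1), beside 20.1% of all genes called higher and 18.4% lower. Without the Hk2-deleted section 3 were called, beside 17.2% and 19.0% of all genes, and without CCl4 section 2 there were 7, beside 18.8% and 20.3%. By DESeq2 there were 2, Mcm2 and Mki67, beside 14.1% and 16.8%. Scaling to totals put the median of all genes at 0.34, with 7422 higher and 685 lower in place of 2926 and 2959. The log2 ratio of mitotic to S-phase UMIs differed between collagen-rich and other spots by 0.12 ± 0.12 (SD, n = 3), and by -0.0021 in CCl4 section 1.

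**Figure D4:**
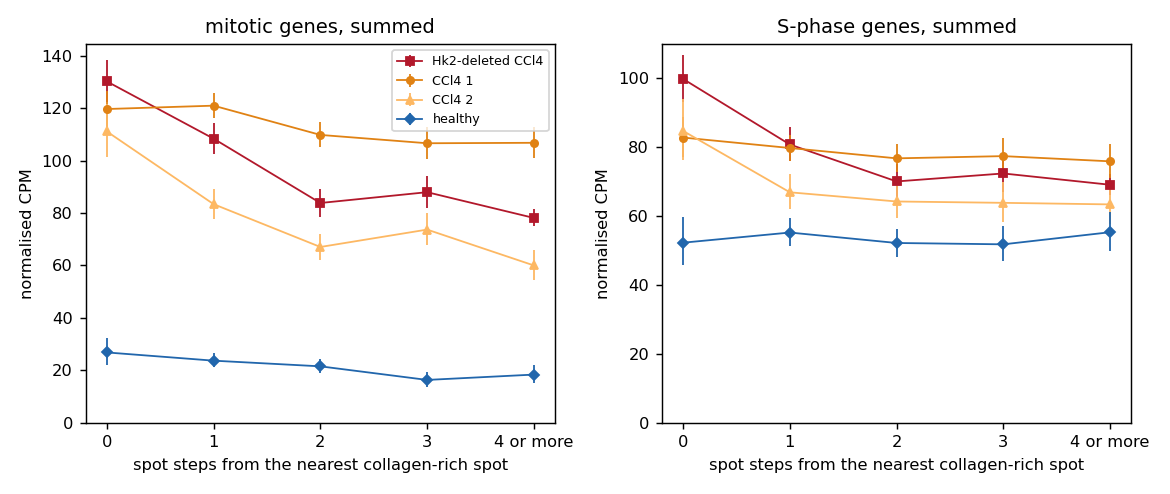
Normalised CPM of the summed mitotic and S-phase genes by distance, in steps between neighbouring spots, from the nearest collagen-rich spot (0), for each section; bars are exact Poisson 95% intervals (counting error only). Mitotic genes ran from 130 to 78.1 in the Hk2-deleted section and from 111 to 60.02 in CCl4 section 2, but only from 120 to 107 in CCl4 section 1.

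Both classes were highest in or next to the collagen-rich spots of the treated sections. In the Hk2-deleted section, mitotic genes were at 130, 108, 83.8, 88.0 and 78.1 normalised CPM at 0, 1, 2, 3 and 4 or more steps. In CCl4 section 2 they were at 111, 83.4, 67.1, 73.7 and 60.02. S-phase genes were at 99.8 and 80.8 at 0 and 1 steps in the Hk2-deleted section and between 69.1 and 72.4 farther out, and at 84.7 and 66.9 and then between 63.4 and 64.2 in CCl4 section 2. CCl4 section 1 had 120 and 121 for mitotic genes at 0 and 1 steps and 107 to 110 farther out. The distances share sections, and no test of the slope was run.

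Whether Hk2 deletion changed the contrast of collagen-rich with other spots was tested as a difference of differences. None of 31 genes was called by edgeR or DESeq2, and 4 had an unadjusted p under 0.05, namely Rrm1 (0.77 ± 0.26, adjusted p = 0.14), Ccna2 (0.66 ± 0.23, adjusted p = 0.16), Ccnd1 (0.25 ± 0.11) and Bub1b (0.97 ± 0.44). Over all 13954 genes 1.09% were called higher and 0.179% lower. The mitotic median was 0.31, but -0.10 without CCl4 section 1, whose own contrast was small.

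Spots rich in markers of other cells were set beside collagen-rich spots in the same way, as the 10% of spots with the highest share of each marker list. Neutrophil-rich spots had the highest ratio of mitotic genes over other spots in every treated section, at 1.68 (95% interval 1.57 to 1.79) in the Hk2-deleted section, 1.18 (1.11 to 1.26) in CCl4 section 1 and 1.77 (1.61 to 1.94) in CCl4 section 2. The ratio of S-phase genes there was 1.36, 1.16 and 1.19. Cholangiocyte-rich spots had mitotic ratios of 1.45, 1.12 and 1.23. Hepatocyte-rich spots lay lower, at 0.793, 0.923 and 0.721 for mitotic genes. In the healthy section the highest ratio was in lymphocyte-rich spots, at 1.64 (1.35 to 1.98). The kinds of spot overlap: 22.2%, 28.0% and 35.3% of neutrophil-rich spots were also collagen-rich in the treated sections. Some of these genes mark precursors (Mpo, Elane, Ltf and Camp are made by maturing granulocytes), and which cells held the mitotic transcripts was not tested.

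**Figure D5:**
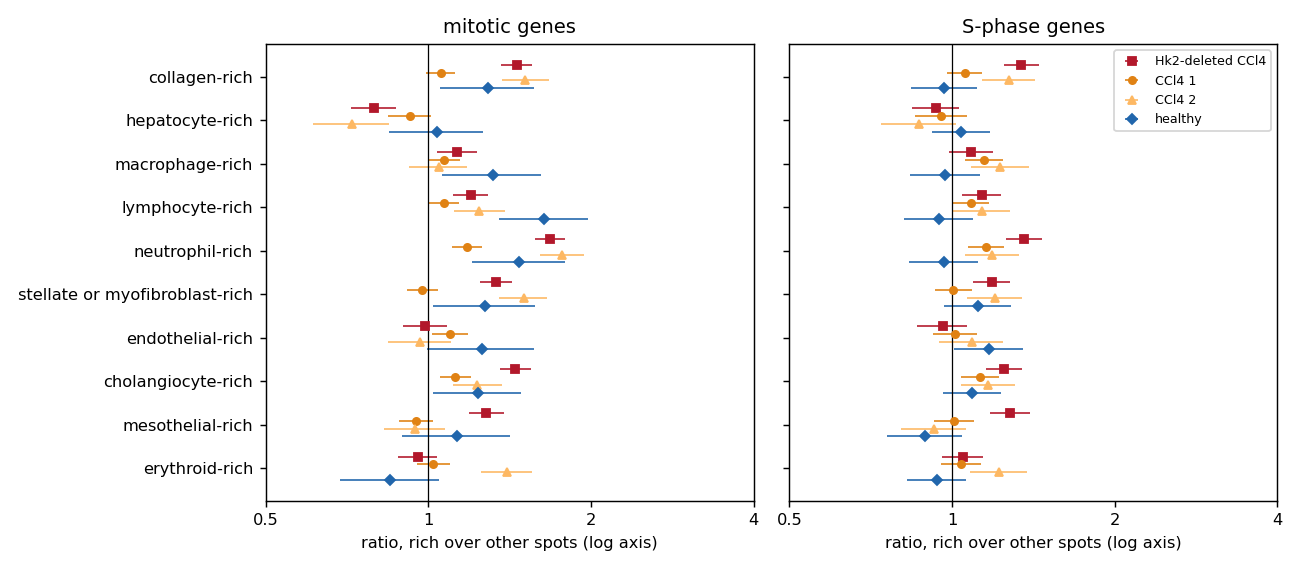
Ratio of summed mitotic (left) and S-phase genes (right) in the 10% of spots richest in each marker list over all other spots, by section (log axis); bars are exact binomial 95% intervals that cover counting error only. Neutrophil-rich spots reached 1.77 for mitotic genes in CCl4 section 2, and hepatocyte-rich spots lay below 1 in the treated sections.

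Cell cycle genes outside the list differed between replication and mitosis in the same way. They were read in the same sections and chosen with earlier results of these data known, so they are not separate support. Of 37 other mitotic genes 23 rose with CCl4 and Pttg1 fell, with a median of 1.56, led by Cdkn3 (3.35 ± 0.65), a phosphatase of cyclin-dependent kinases, and the spindle genes Ckap2l (3.23 ± 0.45) and Hmmr (2.67 ± 0.54). Of 35 other replication genes 6 rose and Mcm10 fell, with a median of 0.28. Among them Cdc6, which loads the helicase, rose by 1.68 ± 0.55. Uhrf1, which maintains DNA methylation, rose by 1.42 ± 0.43. None of 11 G1 drivers was called by edgeR, and 2 had an unadjusted p under 0.05. Over all genes 9.64% were called higher with CCl4 and 4.01% lower.

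Brakes of the cycle rose beside the mitotic genes, 4 of 14 being called and none lower, beside 9.64% of all genes called higher and 4.01% lower. Cdkn1a, which encodes the p53 target p21 and inhibits cyclin-dependent kinases, was at 9.83, 16.0 and 9.42 normalised CPM in the Hk2-deleted, CCl4 1 and CCl4 2 sections against 2.53 in the healthy section (2.33 ± 0.31, adjusted p = 2.8e-05). Cdkn2a (2.09 ± 0.48) and Cdkn2c (1.42 ± 0.21) rose too. Cdkn1a, like Ccnd1, had a larger zone difference in the treated sections than in the healthy section: its zone by CCl4 interaction was 1.44 ± 0.36 (adjusted p = 0.0061). It was also higher in collagen-rich spots (0.57 ± 0.11, adjusted p = 0.00094), as was Cdkn2b (1.44 ± 0.34). Of the 14 brakes, 4 were called higher in collagen-rich spots, the others being Cdkn1b and Cdkn1c, and 2 lower, Rbl2 (-0.27 ± 0.07) and Btg2 (-0.26 ± 0.08). In that contrast 21.7% of all genes were called higher and 21.9% lower, so these counts were near those of all genes.

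The authors' deposited table gives for each gene and section Moran's I, which is near 0 for a gene scattered without spatial order and 1 for a fully clustered one. In the authors' deposited table, Ccnd1 had 0.0578, 0.0478, 0.0251 and 0.0192 in the Hk2-deleted, CCl4 1, CCl4 2 and healthy sections, within the top 12.1% of genes in each. In the same table the mitotic medians were 0.00751, 0.00322, 0.00275 and -0.00204, and the S-phase medians 0.0101, 0.00323, 0.00352 and -0.000154. The medians of both classes were thus close to 0, with most members at few UMIs a spot. Single members lay higher. The highest mitotic gene was at 0.0331 (Ccna2), 0.0252 (Mki67), 0.0283 (Mki67) and 0.0219 (Top2a) in the same order. These exceeded Ccnd1 in CCl4 section 2 and in the healthy section. The highest S-phase gene was at 0.0252, 0.0143, 0.00833 and 0.0182.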

How the data were processed

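The deposited matrices hold raw counts of UMIs per gene and spot, made with Space Ranger 2.0.0 per the file headers and with the build mm10, per the submitters' processing notes; which probes were used is not given in the sources used here. Array rows and columns of the spots (other values, grid positions) came from the deposited position tables, and Moran's I is a score in the authors' deposited table. The cell cycle genes and all lists were chosen with earlier results of these data known. UMIs were summed per section, or per section and spot class, and tested across all genes with edgeR 4.0.16 (R 4.3.3), quasi-likelihood, TMM scaling, its default filter on low counts and Benjamini-Hochberg adjustment, calling at an adjusted p under 0.05. Zone and collagen fits had section as a block. Levels are TMM-normalised CPM except where raw CPM is stated. Poisson and binomial intervals (95%) cover counting error only. DESeq2 1.42.0, other scalings, filters, spot thresholds and left-out sections were alternatives, of which scaling to totals was chosen after seeing the data. Genes given with values in every section were the called genes with the largest changes and the 2 most abundant of each class. The fits were tested on simulated data. Spots are not replicates, and a spot can hold several cells. Across sections 1710 barcodes were shared by all 4, which mark array positions and not cells. P-values for whole sections draw on the spread between 1 pair of mice, with the spread of each gene moderated by edgeR toward that of all genes.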

Additional observations from a re-analysis of the deposited data

Results flagged for a closer look

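The zone difference of Ccnd1 (pericentral over periportal, log2) was larger in the 3 CCl4-treated sections than in the healthy section by 0.99 (edgeR adjusted p = 3.1e-05), a test of the difference itself. It stayed past the threshold in each alternative run, between 0.90 and 1.13. The same test gave 0.93 for Mcm2 (edgeR adjusted p = 0.018), which DESeq2 did not call (adjusted p = 0.13). Both rest on 1 healthy section and on a zone score whose landmarks also changed with CCl4.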

How the results depend on the processing

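Counts of genes called in CCl4 over healthy sections were 12 to 18 under the alternatives run, and 0 in the Hk2 comparison under each. Pericentral calls (1) were 0 with DESeq2 and without collagen-rich spots, 2 without the filter and with the zone score split in 4 parts, 15 with scaling to totals, and 0 to 9 on leaving out a section. Zone by CCl4 calls (2) were 1 with DESeq2 and without collagen-rich spots, 4 without the filter and with scaling to totals, and 1 to 5 on leaving out a section. Collagen calls (13) were 2 with DESeq2, 7 with 5% of spots, 21 with scaling to totals, and 3 to 16 on leaving out a section. With each gene at the same weight, the mitotic minus S-phase mean of log2(CPM + 1) was 0.87 higher in the CCl4 sections than in the healthy section. That value is not a ratio of UMIs. On leaving out a CCl4 section the Hk2 contrast of the whole section spanned 0, at -0.37 to 0.32 for Mki67 and -0.32 to 0.25 for the mitotic median, as did the collagen contrast by Hk2, at -0.55 to 0.44 for Mki67 and -0.066 to 0.48 for Mcm3. Other signs that turned include the Hk2 contrast of Cdk1 and Mcm3: Cdk1 was -0.0069 with DESeq2, -0.0076 with relative log expression scaling and -0.0050 without collagen-rich spots, and Mcm3 -0.0016 without collagen-rich spots. Mcm6 was -0.050 pericentrally without collagen-rich spots. In the middle zone, Cdk1 was -0.013 with scaling to totals and -0.0085 with 4 parts, and Mcm3 0.015 with 4 parts, 0.021 without collagen-rich spots, and -0.092 to 0.046 on leaving out a section (0.016 without the healthy one). The cause was not tested. No paired analysis of whole sections was possible because only the CCl4 group had more than 1 replicate number. The zone and collagen fits compared spot classes within each section. Leaving out a CCl4 section left the whole-section contrasts without a test, and zone by CCl4 without the healthy section and the collagen contrast by Hk2 without the deleted section could not be fitted.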
